A study of Mus musculus with 27 samples.

Results

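The microRNAs miR-143 and miR-145 are known for their abundance in smooth muscle, and were followed here in mouse embryonic stem (ES) cells that lack a subunit or a cofactor of the Polycomb complex PRC2. No smooth muscle was analysed. The 4 mature arms of the 2 hairpins, mmu-miR-143-5p, mmu-miR-143-3p, mmu-miR-145a-5p and mmu-miR-145a-3p, were selected by their mature names among 2035 mature microRNA loci, and all 4 were found, 1 locus each. They were proposed with their counts in these tables already known, so the differences between genotypes below are descriptions of those counts. The cells were of the CJ7 line, grown with serum and leukemia inhibitory factor, in 4 genotypes: Eed-/-, Ezh2-/-, Jarid2-/- and wild-type. Eed and Ezh2 are core subunits of PRC2, the enzyme that methylates histone H3 at silent genes, and Jarid2 is a cofactor that helps to bring it to its targets. The labels list 7 small RNA samples, 2 each for Eed-/-, Ezh2-/- and wild-type and 1 for Jarid2-/-, and the analysed tables hold 1 column of counts per genotype. Clonality of the mutant lines, the use of feeder cells and whether a column pools both samples were not given in the sources used.

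MiR-143 and miR-145 are cut from a shared primary transcript, and each hairpin gives a 5p and a 3p arm, of which one, the guide, usually enters the Argonaute protein and the other, the passenger, is degraded. In smooth muscle the pair is transcribed under serum response factor and myocardin and favours the contractile state. MiR-145 is also known, from human ES cells, as a repressor of the messenger RNAs of OCT4, SOX2 and KLF4, so that a high level accompanies loss of pluripotency. The guide is miR-143-3p in the first hairpin and miR-145a-5p in the second.

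The column totals behind each value were 42293019 microRNA counts for Eed-/-, 32074712 for Ezh2-/-, 8485806 for Jarid2-/- and 23793733 for wild-type. Levels are given as counts-per-million of the column total (CPM), and 1 count was worth 0.0236 CPM in Eed-/-, 0.0312 in Ezh2-/-, 0.118 in Jarid2-/- and 0.0420 in wild-type. Ranges after a value are exact 95% binomial intervals, which cover counting error only and are too narrow where amplified copies were read more than once. Each genotype had a single column, so the differences lack a replicate check and were not put to a test. A difference of a pool of cells does not tell fewer cells that hold a microRNA from less of it per cell. The 9 markers of ES cells found, arms of the miR-290 and miR-302 clusters led by miR-294-3p, miR-293-3p and miR-290a-5p, together took 325936 CPM in Eed-/-, 358303 in Ezh2-/-, 303922 in Jarid2-/- and 364604 in wild-type, with none at 0. The sums cover members that went opposite ways: miR-302a-3p had log2 ratios of 1.54 in Eed-/- and 1.22 in Jarid2-/-, miR-302d-3p of 1.08 in Eed-/-, miR-367-3p of 1.18 in Jarid2-/-, and miR-293-3p of -1.07 in Jarid2-/-, and the other members were within 1 log2 unit of wild-type in each mutant.

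The 4 arms lie close together on chromosome 18 (mm9, minus strand) and span 1427 bp. MiR-143-5p lies at chr18:61808887-61808907 and miR-143-3p at chr18:61808853-61808873. MiR-145a-5p lies at chr18:61807520-61807542 and miR-145a-3p at chr18:61807481-61807502. In RefSeq's gene table for GRCm38, both hairpins fall inside the span of Carmn, the long noncoding RNA that hosts them, and exon or intron was not resolved here. The arms are 21 to 23 nt long. No other mature name carried the seed of miR-143-3p or of miR-145a-3p, while the seed of miR-145a-5p was shared by miR-145b and that of miR-143-5p by miR-1930-3p. MiR-145b (chr18:69181891-69181911) has the same first 17 bases as miR-145a-5p, and it had 0 counts in all 4 columns.

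Scaled to the column totals, the 2 guide arms were lower in each mutant than in wild-type, and miR-143-3p stood furthest from wild-type in Jarid2-/-. Summed over the 4 arms, the level was 471 CPM in Eed-/-, 510 CPM in Ezh2-/- and 494 CPM in Jarid2-/-, against 1265 CPM in wild-type. The sums came from 19908, 16355 and 4194 counts in the mutants in that order, and 30098 in wild-type. Set against wild-type, the Eed-/- sum was lower by a factor of 2.69 (2.64 to 2.74), the Ezh2-/- sum by 2.48 (2.43 to 2.53) and the Jarid2-/- sum by 2.56 (2.48 to 2.64). MiR-145a-5p made up most of it, with 88.5% in Eed-/-, 90.5% in Ezh2-/- and 97.3% in Jarid2-/-, against 85.3% in wild-type. With column totals the sums of the 3 mutants lay close together although their levels of miR-143-3p did not.

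**Figure D1:**
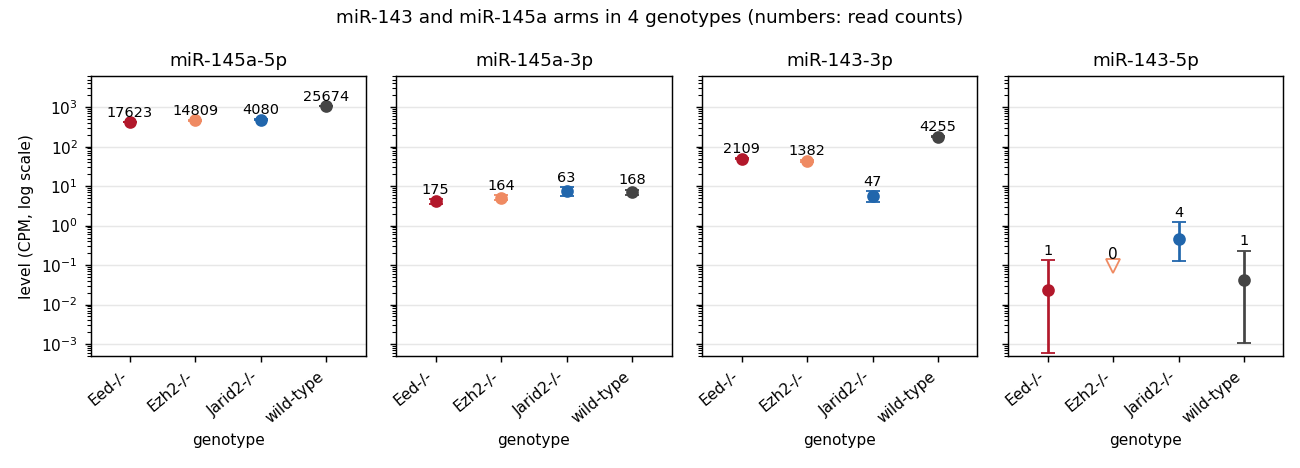
Level of each arm (CPM, log scale) in the 4 genotypes, with exact 95% binomial intervals as bars and read counts as numbers. The open triangle marks the limit of 3 counts that a count of 0 allows. MiR-145a-5p lies highest in wild-type and close together in the mutants, miR-143-3p is lowest in Jarid2-/- with 47 counts, and miR-143-5p had at most 4 counts.

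MiR-145a-5p, the more abundant guide, had 417 CPM (411 to 423) in Eed-/-, 462 CPM (454 to 469) in Ezh2-/- and 481 CPM (466 to 496) in Jarid2-/-, against 1079 CPM (1066 to 1092) in wild-type. With column totals the 3 mutants lay close to each other and wild-type stood above all of them. Eed-/- was 2.59-fold lower (2.54 to 2.64) than wild-type, Ezh2-/- 2.34-fold (2.29 to 2.38) and Jarid2-/- 2.24-fold (2.17 to 2.32). Among the mutants, Jarid2-/- exceeded Ezh2-/- by 1.04-fold (1.01 to 1.08) and Eed-/- by 1.15-fold (1.11 to 1.19), and Ezh2-/- exceeded Eed-/- by 1.11-fold (1.08 to 1.13). These steps lay beyond counting error, and the spread between cultures, against which they would be read, was not measured. The order of the mutants also changed with the scaling of the columns, as given below. By abundance miR-145a-5p ranked 167 of 2035 loci in Eed-/-, 132 in Ezh2-/-, 138 in Jarid2-/- and 116 in wild-type.

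MiR-143-3p, the guide of the other hairpin, had 49.9 CPM (47.8 to 52.0) in Eed-/-, 43.1 CPM (40.8 to 45.4) in Ezh2-/- and 5.54 CPM (4.07 to 7.37) in Jarid2-/-, against 179 CPM (173 to 184) in wild-type. Jarid2-/- was the lowest, Eed-/- and Ezh2-/- lay in between, and the 4 intervals did not overlap. Eed-/- was 3.59-fold lower (3.40 to 3.78) than wild-type, Ezh2-/- 4.15-fold (3.91 to 4.41) and Jarid2-/- 32.3-fold (24.2 to 44.0). The Jarid2-/- value rests on 47 counts, where the wild-type level would have given 1518 counts at that column's total. Compared with the other mutants, Jarid2-/- was 9.00-fold lower (6.75 to 12.3) than Eed-/- and 7.78-fold lower (5.82 to 10.6) than Ezh2-/-. With column totals Ezh2-/- was 1.16-fold lower (1.08 to 1.24) than Eed-/-, an order that reversed under other scalings given below. In rank, miR-143-3p stood at 357 in Eed-/-, 303 in Ezh2-/- and 562 in Jarid2-/-, against 269 in wild-type.

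The passenger arms were scarce, and miR-145a-3p differed less from wild-type than its guide did. MiR-145a-3p had 175 counts and 4.14 CPM (3.55 to 4.80) in Eed-/-, 164 counts and 5.11 CPM (4.36 to 5.96) in Ezh2-/- and 63 counts and 7.42 CPM (5.70 to 9.50) in Jarid2-/-, against 168 counts and 7.06 CPM (6.03 to 8.21) in wild-type. Jarid2-/- and wild-type overlapped, and their ratio of 1.05 (0.774 to 1.41) lay within counting error. The level scaled to column totals was 1.71-fold lower (1.37 to 2.12) in Eed-/- and 1.38-fold lower (1.11 to 1.72) in Ezh2-/-. These differences depended on the scaling, as given below. Ezh2-/- and Eed-/- did not differ beyond counting error, with a ratio of 1.24 (0.992 to 1.54). MiR-143-5p had 1 count in Eed-/-, 0 in Ezh2-/- and 4 in Jarid2-/-, against 1 in wild-type. A count of 0 allows up to 0.0935 CPM in Ezh2-/-, taken as 3 counts. The 4 counts of Jarid2-/- gave a ratio to wild-type of 11.2 (1.11 to 552), an interval too wide to describe a level.

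Read against all loci, the 2 guide arms were called lower in each mutant, and so were many other microRNAs. A locus was tested where it had at least 10 counts in 1 of the 2 columns, and called where log2 of (mutant CPM + 1) over (wild-type CPM + 1) was at least 1 in size (2-fold). Of the 4 arms, 3 were tested in each mutant, 2 were called lower and 0 higher, and miR-143-5p was below the minimum. The share of all tested loci called lower was 15.0% of 1096 in Eed-/-, 24.5% of 1000 in Ezh2-/- and 22.8% of 950 in Jarid2-/-, and the share called higher was 17.5%, 4.90% and 16.3% in the same order. The arms were chosen with these ratios known, so nothing is read from their count against that background.

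The log2 ratios of miR-143-3p were -1.82 in Eed-/-, -2.03 in Ezh2-/- and -4.78 in Jarid2-/-. Counted from the lowest, they ranked 95 of 1096, 129 of 1000 and 14 of 950 tested loci. Those of miR-145a-5p were -1.37, -1.22 and -1.16, at ranks 120, 217 and 204, so that it stood nearer to the bulk of loci. Those of miR-145a-3p were -0.65, -0.40 and 0.06, and the medians of all tested loci were 0.08 for Eed-/-, -0.44 for Ezh2-/- and -0.17 for Jarid2-/-. The threshold fell between the arms: miR-145a-5p in Jarid2-/- was the member just inside it and miR-145a-3p in Eed-/- the one just outside.

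**Figure D2:**
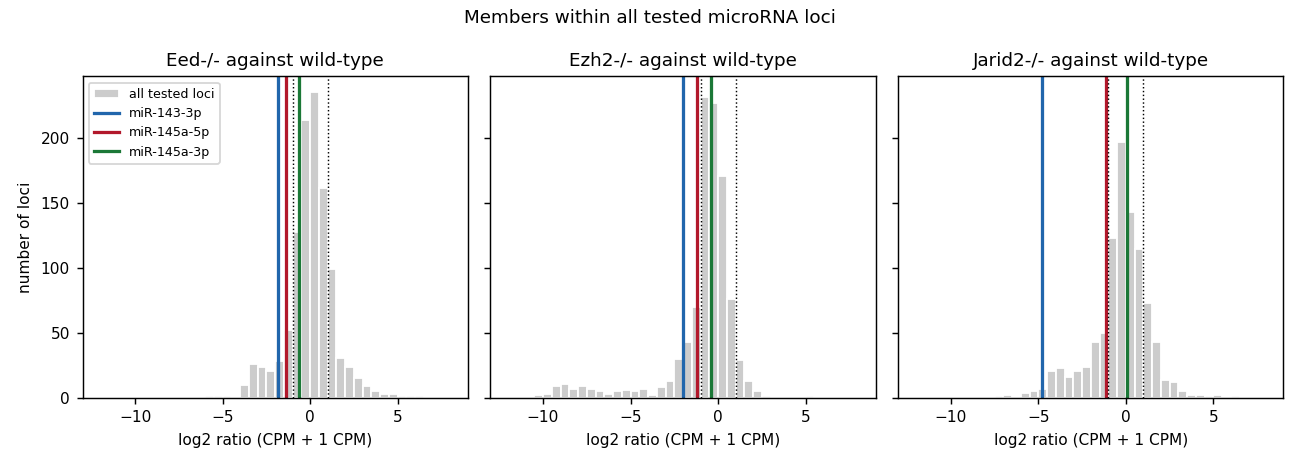
Number of tested loci by log2 ratio to wild-type (CPM with 1 CPM added), in bins of 0.5, for Eed-/-, Ezh2-/- and Jarid2-/-. Coloured lines mark 3 arms and dotted lines the 2-fold threshold. MiR-143-3p lies at -1.82 in Eed-/- and -2.03 in Ezh2-/-, and in the far lower tail in Jarid2-/-, at -4.78.

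How far miR-145a-5p stood below wild-type depended on the scaling of the columns, while the difference of miR-143-3p passed 2-fold under all 5 scalings. The scalings were the column total, TMM factors, median-ratio size factors, the loci outside the Gtl2-Rian-Mirg span and the miR-290 cluster, and the read totals behind the authors' deposited reads-per-million (RPM). In the deposited RPM values, miR-145a-5p had 65.9 in Eed-/-, 60.7 in Ezh2-/- and 65.5 in Jarid2-/-, against 104 in wild-type. With these totals its log2 ratios were -0.66, -0.78 and -0.67, below the threshold in size in all 3 mutants. For Ezh2-/- they were also short of it with TMM factors (-0.50) and median-ratio size factors (-0.71). The values of miR-143-3p lay between -2.04 and -1.12 in Eed-/-, -2.03 and -1.31 in Ezh2-/-, and -4.91 and -4.35 in Jarid2-/-. With TMM factors they were -1.94 in Eed-/- and -1.31 in Ezh2-/-. With median-ratio size factors they were -2.04 and -1.52, so that Ezh2-/- was above Eed-/- with both.

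Under these scalings the median of all tested loci lay between -0.06 and 0.52 in Eed-/- and between -0.44 and 0.09 in Ezh2-/-. In Jarid2-/- it lay between -0.27 and 0.23. Among the tested arms, miR-143-3p had the lowest log2 ratio in each mutant, miR-145a-5p the next and miR-145a-3p the highest. A scaling moves all arms of a column alike, apart from the added 1 CPM. Their order was therefore nearly fixed in advance, and its holding under each scaling is no check. With column totals, miR-143-3p stood at -1.90 in Eed-/-, -1.58 in Ezh2-/- and -4.61 in Jarid2-/- from that median. MiR-145a-5p stood at -1.45, -0.78 and -0.99. MiR-145a-3p stood at -0.73, 0.04 and 0.24, and its own ratio to wild-type in Ezh2-/- turned positive with TMM factors (0.23) and median-ratio size factors (0.05), and in Jarid2-/- negative with median-ratio size factors (-0.04) and with scaling outside the 2 clusters (-0.07). The share of called loci that were higher was 53.9% in Eed-/-, 16.7% in Ezh2-/- and 41.7% in Jarid2-/- with column totals. It was 77.0%, 34.2% and 58.5% with the RPM totals, 40.1% in Eed-/- and 37.0% in Ezh2-/- with median-ratio size factors, and 47.1% in Ezh2-/- with TMM factors.

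**Figure D3:**
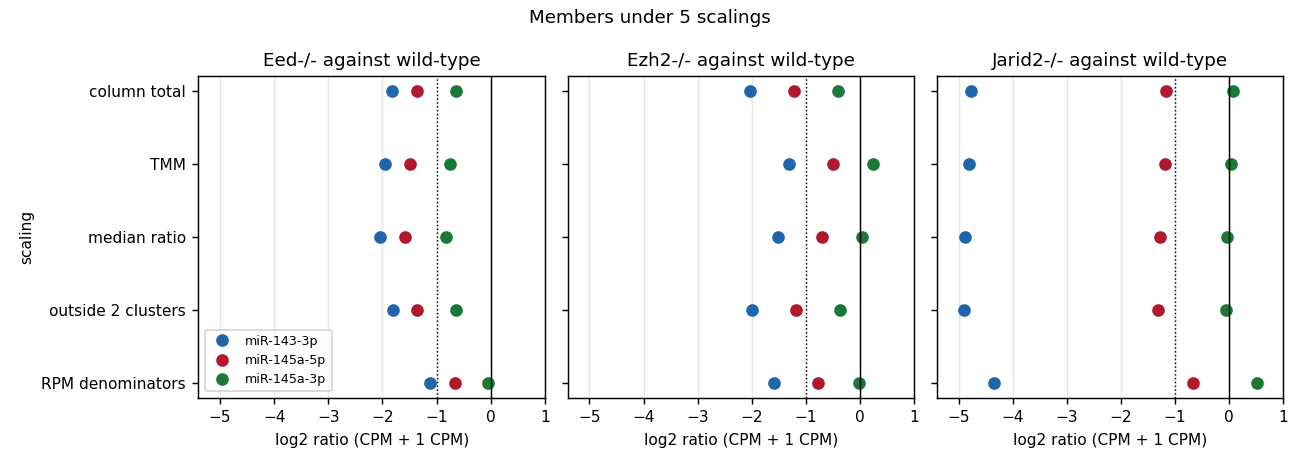
Log2 ratio to wild-type (CPM with 1 CPM added) of 3 arms under 5 column scalings, for Eed-/-, Ezh2-/- and Jarid2-/-; the dotted line marks 2-fold lower. MiR-143-3p lies left of it everywhere, and miR-145a-5p lies right of it with the RPM totals in all 3 mutants and with 2 more scalings in Ezh2-/-.

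The balance between the 2 guides, which no scaling of a column can change, differed between the genotypes. For every 100 counts of miR-145a-5p there were 12.0 counts of miR-143-3p in Eed-/- (11.4 to 12.5), 9.33 counts in Ezh2-/- (8.83 to 9.86) and 1.15 counts in Jarid2-/- (0.845 to 1.53), against 16.6 (16.0 to 17.1) in wild-type. All 4 intervals were separate, and Jarid2-/- was far below the rest. Compared with wild-type, the Eed-/- ratio was 1.38-fold lower (1.31 to 1.46), the Ezh2-/- ratio 1.78-fold (1.67 to 1.89) and the Jarid2-/- ratio 14.4-fold (10.8 to 19.6). The cause of the difference between the guides of the 2 hairpins was not tested. A ratio of counts between 2 microRNAs also holds how well each was captured, and only its difference between columns is read here. Whether each was captured equally well in all columns was not tested.

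The balance of the 2 arms of the miR-145a hairpin differed as well. MiR-145a-3p made up 0.983% of both arms in Eed-/- (range 0.844 to 1.14%), 1.10% in Ezh2-/- (range 0.935 to 1.28%) and 1.52% in Jarid2-/- (range 1.17 to 1.94%), against 0.650% in wild-type (range 0.556 to 0.756%). Wild-type was the lowest and its interval met none of the others, while those of Eed-/- and Ezh2-/- overlapped. The odds of a read being the guide, relative to wild-type, were 0.659 for Eed-/- (0.530 to 0.820), 0.591 for Ezh2-/- (0.473 to 0.738) and 0.424 for Jarid2-/- (0.315 to 0.577). In the miR-143 hairpin the guide took 2109 of its counts in Eed-/- beside 1 passenger count, 1382 beside 0 in Ezh2-/- and 47 beside 4 in Jarid2-/-, against 4255 beside 1 in wild-type. The guide's share was 92.2% (81.1 to 97.8%) in Jarid2-/-, and the lower bound of its interval was at least 99.7% in Eed-/-, Ezh2-/- and wild-type.

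Such arm shifts were common in these columns. Among 245 hairpin loci with at least 100 counts on both arms in some column, the guide's log2 ratio to wild-type lay at least 1 below that of its passenger in 24.1% in Eed-/-, 29.8% in Ezh2-/- and 25.3% in Jarid2-/-. For miR-145a the guide's log2 ratio minus that of its passenger was -0.72 for Eed-/-, -0.82 for Ezh2-/- and -1.23 for Jarid2-/-. The median over the 245 hairpins was -0.28, -0.39 and -0.40 in the same order, and 31.8%, 35.1% and 21.2% of hairpins lay as low as miR-145a or lower. MiR-145a thus lay above the lower quartile of hairpins in Eed-/- and Ezh2-/- and below it in Jarid2-/-.

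**Figure D4:**
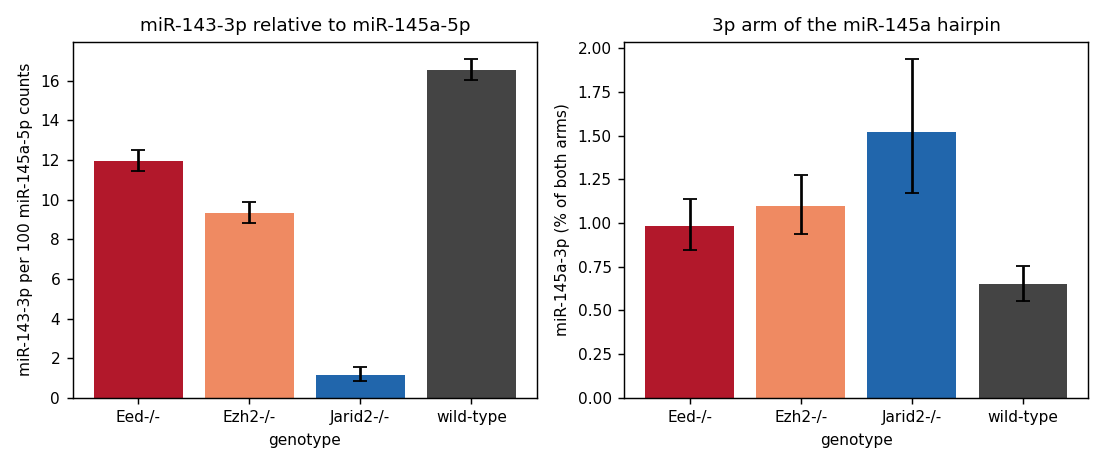
Left, miR-143-3p counts per 100 miR-145a-5p counts, and right, miR-145a-3p as a percentage of both arms of its hairpin, in the 4 genotypes, with exact 95% binomial intervals. On the left Jarid2-/- is lowest at 1.15 and wild-type highest at 16.6; on the right Jarid2-/- is highest at 1.52% and wild-type lowest at 0.650%.

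The microRNAs most like each arm were found by the distance between their 3 log2 ratios to wild-type, over 4 genotypes and 828 loci of other hairpins with at least 50 counts in some column. Nearest to miR-145a-5p was miR-27b-3p, at a distance of 0.17 log2 units, with 248 CPM in Eed-/-, 270 CPM in Ezh2-/- and 252 CPM in Jarid2-/-, against 635 CPM in wild-type. It was followed by miR-3068-3p at 0.34, miR-6359 and miR-6372, whose counts were at most 140, and miR-350-3p at 0.53. Nearest to miR-145a-3p was miR-26a-2-3p at 0.04, then miR-106b-5p, miR-484, miR-186-5p and miR-6418-3p, all within 0.26.

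MiR-143-3p had no close match, and its 5 nearest lay at 1.07 to 2.12 log2 units. They were miR-6410, miR-210-3p, miR-6406, miR-22-3p and miR-101a-5p. MiR-210-3p, which is induced by hypoxia, had 554 CPM in Eed-/-, 336 CPM in Ezh2-/- and 82.5 CPM in Jarid2-/-, against 3317 CPM in wild-type. MiR-22-3p had 351 CPM in Eed-/-, 329 CPM in Ezh2-/- and 9.90 CPM in Jarid2-/-, against 500 CPM in wild-type. Like miR-143-3p, both were lowest in Jarid2-/- and highest in wild-type, but miR-22-3p was within 1 log2 unit of wild-type in Eed-/- and Ezh2-/-. For miR-143-5p, with at most 4 counts, the added 1 CPM sets the ratios, and no match is given.

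Mature sequences of 4 of these matches are shown because a likeness in level need not be a likeness in target choice. They are written 5′ to 3′ as in the deposited tables, with the seed (bases 2 to 8) in capitals, and each has a seed that differs from the other 3 and from those of all 4 miR-143 and miR-145a arms.
miR-27b-3p: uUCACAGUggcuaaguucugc
miR-26a-2-3p: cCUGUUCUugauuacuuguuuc
miR-210-3p: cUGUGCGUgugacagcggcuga
miR-22-3p: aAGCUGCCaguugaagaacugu
They come from chr13:63402068-63402088 (plus strand), chr10:126432637-126432658 (plus), chr7:148407306-148407327 (minus) and chr11:75277274-75277295 (plus) in mm9.

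Other microRNAs typical of mesenchymal cells and fibroblasts, the cells outside muscle in which miR-143 and miR-145 are best known, did not share 1 pattern. Of the 14 names listed, 13 were tested in each mutant, and 3 were called lower and 2 higher in Eed-/-, 7 lower and 0 higher in Ezh2-/-, and 5 lower and 0 higher in Jarid2-/-. MiR-199a-3p and miR-199b-3p, whose reads cannot be told apart, count as separate names in these calls and in the medians and sums below. Both were called lower in Eed-/- and Ezh2-/-. Over all tested loci, 15.0% were called lower and 17.5% higher in Eed-/-, 24.5% and 4.90% in Ezh2-/-, and 22.8% and 16.3% in Jarid2-/-. These shares were larger with the minimum of 100 counts, as given above. The median log2 ratios of the 13 names were -0.58 in Eed-/-, -1.26 in Ezh2-/- and -0.70 in Jarid2-/-, beside the medians of all tested loci given above. The 14 names summed to 16731 CPM in Eed-/-, 6125 CPM in Ezh2-/- and 6400 CPM in Jarid2-/-, against 8650 CPM in wild-type. MiR-214-5p had 0 counts in Ezh2-/- and Jarid2-/- and only 1 count each in Eed-/- and wild-type. Most of the sum was miR-21a-5p, a microRNA of growth and stress responses, which had 15222 CPM in Eed-/-, 4851 CPM in Ezh2-/- and 5642 CPM in Jarid2-/-, against 7010 CPM in wild-type.

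MiR-199a-3p, made in mesenchyme from a transcript antisense to a dynamin gene, had 41.6 CPM in Eed-/-, 27.8 CPM in Ezh2-/- and 157 CPM in Jarid2-/-, against 156 CPM in wild-type. It was thus lower in Eed-/- and Ezh2-/-, as miR-143-3p was, but level with wild-type in Jarid2-/-, where miR-143-3p was at its lowest. The counts of miR-199b-3p were nearly equal to those of miR-199a-3p, 1330 and 1332 in Jarid2-/-, and since the mature sequences are identical their reads cannot be told apart. MiR-214-3p, made from the same transcript as a copy of miR-199a, had 50 counts in Eed-/-, 4 in Ezh2-/- and 3 in Jarid2-/-, against 128 in wild-type. Its log2 ratios were -1.55, -2.50 and -2.24, which the added 1 CPM held back. Without it, miR-214-3p was 4.55-fold lower in Eed-/-, 43.1-fold in Ezh2-/- and 15.2-fold in Jarid2-/-. The values in Ezh2-/- and Jarid2-/- rest on those few counts.

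The other listed names with at least 100 counts in some column went several ways. MiR-152-3p had log2 ratios of -0.41 in Eed-/-, -1.87 in Ezh2-/- and -1.89 in Jarid2-/-, and miR-100-5p of -0.92, -1.31 and -1.69. MiR-125b-5p stood at -0.69, 0.41 and -1.07, miR-199b-5p at -0.58, 0.13 and -0.38, and miR-199a-5p at -0.89, -1.85 and -0.02. MiR-10b-5p, which lies in a Hox cluster, was the exception at 4.96 in Eed-/-, and stood at 0.22 in Ezh2-/- and -0.31 in Jarid2-/-. MiR-22-3p and miR-22-5p, arms of 1 hairpin, stood at -5.52 and -0.70 in Jarid2-/-, and miR-21a-3p at 0.81, -1.26 and -0.94 in Eed-/-, Ezh2-/- and Jarid2-/-.

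**Figure D5:**
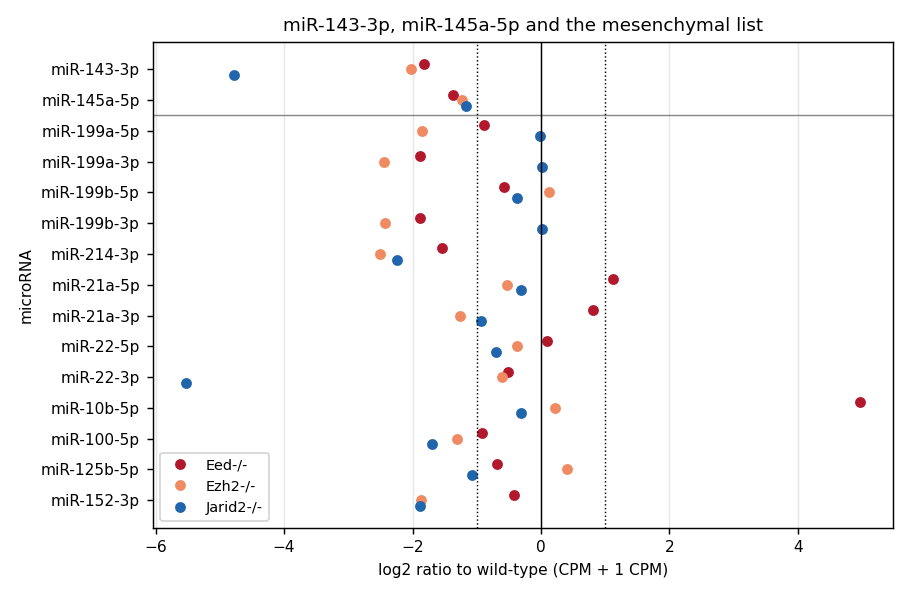
Log2 ratio to wild-type (CPM with 1 CPM added) of miR-143-3p, miR-145a-5p and the 13 mesenchymal names with at least 100 counts in some column, with 1 point each for Eed-/-, Ezh2-/- and Jarid2-/-. Dotted lines mark 2-fold. The miR-199 3p arms are low in Eed-/- and Ezh2-/- and at 0.01 in Jarid2-/-, where miR-143-3p is at -4.78 and miR-22-3p at -5.52.

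MicroRNAs of skeletal and heart muscle were scarce beside miR-145a-5p, though their sum was of the order of the miR-143-3p level in Eed-/- and Jarid2-/-. The 7 names summed to 31.9 CPM in Eed-/-, 9.17 CPM in Ezh2-/- and 3.89 CPM in Jarid2-/-, against 15.0 CPM in wild-type. Of 5 tested in each mutant, 1 was higher in Eed-/- (miR-206-3p, a microRNA of skeletal muscle, with 671 counts, against 18 in wild-type), 0 were called in Ezh2-/- and 1 was lower in Jarid2-/- (miR-499-5p, with 5 counts against 167 in wild-type), beside 17.5% of all tested loci higher in Eed-/- and 22.8% lower in Jarid2-/-. At these levels the added 1 CPM held back calls. Without it, miR-133a-3p was 2.85-fold lower, miR-133b-3p 3.03-fold lower and miR-206-3p 2.93-fold higher in Ezh2-/-. In Jarid2-/-, with at most 17 counts each, miR-1a-3p was 2.31-fold, miR-133a-3p 2.57-fold, miR-133b-3p 2.41-fold and miR-206-3p 3.21-fold lower. As ratios to wild-type, the intervals of miR-133b-3p (0.106 to 1.19) and miR-206-3p (0.0351 to 1.30) included no difference. Both thus lay within counting error, and miR-133a-3p (0.119 to 0.996) lay at its edge. In Eed-/- miR-133b-3p was 2.25-fold higher and miR-499-5p 2.15-fold lower. MiR-1a-3p, a marker of both muscles, had 7.38 CPM in Eed-/-, 2.34 CPM in Ezh2-/- and 2.00 CPM in Jarid2-/-, against 4.62 CPM in wild-type. The heart markers miR-208a-3p and miR-208b-3p had 1 and 2 counts in Eed-/-, within the 3 counts that a count of 0 allows, and 0 in Ezh2-/-, Jarid2-/- and wild-type.

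Markers of other lineages went different ways between the mutants. MiR-126a-3p, the defining microRNA of endothelium, had 494 CPM in Eed-/-, 319 CPM in Ezh2-/- and 25.6 CPM in Jarid2-/-, against 97.3 CPM in wild-type, and its other arm miR-126a-5p 311, 393 and 299 CPM in the mutants, against 337 CPM in wild-type. The 7 blood names summed to 4775 CPM in Eed-/-, 9463 CPM in Ezh2-/- and 2903 CPM in Jarid2-/-, against 5955 CPM in wild-type. MiR-150-5p of lymphocytes gave most of that sum, miR-155-5p stood at log2 ratios of 1.17 in Eed-/-, 0.92 in Ezh2-/- and -0.86 in Jarid2-/-, and miR-142-5p at -5.96, -0.66 and -2.41. The 6 epithelial names summed to 2890 CPM in Eed-/-, 3905 CPM in Ezh2-/- and 7229 CPM in Jarid2-/-, against 6226 CPM in wild-type, led by miR-200a-3p, miR-205-5p and miR-141-3p. The members differed: 2 of 6 were called lower and 2 higher in Eed-/-, 1 lower and 2 higher in Ezh2-/-, and 0 lower and 1 higher in Jarid2-/-, beside the shares over all tested loci given above. The 2 that were higher in both Eed-/- and Ezh2-/- were miR-200b-3p, by 3.31-fold and 4.45-fold, and miR-200c-3p, by 8.48-fold and 6.95-fold. The 3 neural names, miR-124-3p and both arms of miR-9, summed to 1065 CPM in Eed-/-, 1606 CPM in Ezh2-/- and 22.7 CPM in Jarid2-/-, against 1024 CPM in wild-type. MiR-124-3p carried these sums, with log2 ratios of -0.03 in Eed-/-, 0.66 in Ezh2-/- and -5.93 in Jarid2-/-. MiR-9-5p stood apart from it at 3.51, -1.32 and -0.03, and miR-9-3p at 2.14, -0.01 and -0.47. The liver marker miR-122-5p was below 1 CPM in all 4 columns. The part of other cell types in the levels of miR-143 and miR-145a was not tested.

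The nearest other microRNA on the chromosome, the miR-378a hairpin, 249930 bp away, was not 2-fold lower in any mutant. MiR-378a-3p, which is encoded in a gene of mitochondrial metabolism, had 552 CPM in Eed-/-, 1249 CPM in Ezh2-/- and 1345 CPM in Jarid2-/-, against 666 CPM in wild-type. Its level was near wild-type in Eed-/- and above it in Ezh2-/- and Jarid2-/-, with log2 ratios of -0.27, 0.91 and 1.01. MiR-378a-5p had log2 ratios of 0.02, 2.38 and 1.76 in the same order.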

How the data were processed

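Small RNA of 18 to 40 nt was gel-selected and sequenced on a SOLiD instrument, per the labels' protocols. Per the submitters' processing notes, cutadapt and Bowtie were used with build mm9 (versions, settings and the handling of multiply matching reads: not given in the sources used here). Per the file headers, each deposited table holds the raw count of reads per mature locus of miRBase release 20 and the same as reads-per-million (RPM). The RPM values deposited by the authors refer to larger read totals than the microRNA counts, which made up 15.8% of them in Eed-/-, 13.2% in Ezh2-/- and 13.6% in Jarid2-/-, against 9.66% in wild-type.

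Columns were assigned by name: Eed-/- as HEED, Jarid2-/- under its older name Jumonji, and wild-type, the least direct, by the parental line CJ7 with no mutant gene named. Counts were scaled to the column total. Intervals were Clopper-Pearson for shares and exact conditional binomial for ratios (scipy 1.17.1). Scaling factors came from edgeR 4.0.16 and DESeq2 1.42.0, and no count test was run, because each genotype had 1 column. Calls and intervals were tested on counts simulated from the wild-type profile with counting error alone. Scaling shifts, amplified copies and differences between cultures were not simulated. The members and lists were chosen with earlier results of these data known. Named by rule were the 4 arms, the 5 nearest patterns per arm (not given for miR-143-5p), the mesenchymal names with at least 100 counts, miR-145b, and the 3 names of highest mean CPM per other list; miR-208a-3p, miR-208b-3p, miR-214-5p, miR-378a, miR-200b-3p, miR-200c-3p, miR-302a-3p, miR-302d-3p and miR-367-3p were added after their values were seen. MiR-133a-3p and miR-133b-3p were likewise added after their values were seen. The miR-292a-3p name of the ES cell list was not found. For a listed name with several loci the locus with the most counts was used. Sequences of chromosome 18 are not reported here. The chromatin and messenger RNA samples, with the levels of Eed, Ezh2 and Jarid2 that would check the labels, were not analysed here.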

Additional observations from a re-analysis of the deposited data

How the results depend on the processing

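The log2 ratio of the 4 summed arms stayed below 0 under each alternative. With the RPM totals it was -0.71 in Eed-/-, -0.86 in Ezh2-/- and -0.86 in Jarid2-/-, short of 2-fold; in Ezh2-/- it was also short with TMM factors (-0.58) and median-ratio size factors (-0.79). It was -1.55 in Eed-/- with TMM factors, -1.65 in Eed-/- and -1.48 in Jarid2-/- with median-ratio size factors, and -1.27 in Ezh2-/- and -1.51 in Jarid2-/- with scaling outside the Gtl2-Rian-Mirg span and the miR-290 cluster. The miR-143 hairpin alone gave -1.82, -2.03 and -4.68 in Eed-/-, Ezh2-/- and Jarid2-/-, and the miR-145a hairpin alone -1.37, -1.22 and -1.15. With 10 CPM added, miR-143-3p in Jarid2-/- was -3.60. The odds ratio of guide to passenger had the direction of the difference in share; for miR-143 in Ezh2-/-, with 0 passenger counts, it had no finite value.

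The background counts moved by over 1.5 times in these cases. With TMM factors 163 loci were lower and 145 higher in Ezh2-/-, and with median-ratio size factors 111 were higher. With the RPM totals 369 were higher in Eed-/-, 101 in Ezh2-/- and 259 in Jarid2-/-. With 0.1 CPM added 87 were higher in Ezh2-/-, and with 10 CPM added 105 were higher in Eed-/-, 26 in Ezh2-/- and 95 in Jarid2-/-, and 160 lower in Ezh2-/-. At 4-fold, 84 were lower and 62 higher in Eed-/-, 132 and 7 in Ezh2-/-, and 124 and 39 in Jarid2-/-. A filter of at least 100 counts and 1 value per mature name moved none by that much. Loosening the filter changed no count, which was nearly fixed in advance, since loci under 10 counts seldom reach the 1 CPM that a call needs. The shares did move: in Ezh2-/- 12.0% of loci were lower with no filter, 24.5% with the main filter and 32.5% with at least 100 counts. No paired analysis was possible because each genotype had 1 column, so replicate fits and leaving out replicates were not run. The Jarid2-/- column was the shallowest, and its 47 counts of miR-143-3p and 63 of miR-145a-3p limit those values most.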

Other observations

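In Jarid2-/- the log2 ratio to wild-type of several other guides was far below that of their passengers, which compares ratios and not levels. Among the 245 hairpins the 5 guides with the lowest difference of log2 ratios were miR-124-3p (-7.20), miR-294-3p (-5.30), miR-295-3p (-4.93), miR-22-3p (-4.83) and miR-210-3p (-4.13). In miR-294 and miR-295, microRNAs of the ES cell cluster, it was the passenger that differed: miR-294-5p had 32281 counts in Jarid2-/- and 2297 in wild-type, while the guide's log2 ratio was -0.01. In miR-124, a neural microRNA, the guide had 133 counts in Jarid2-/- against 24136 in wild-type, and the passenger 1497 against 1720. In miR-22 the guide had 84 counts against 11889, and the passenger 175 against 810, and in miR-210 the guide had 700 against 78934 and the passenger 398 against 2562. The same difference in Eed-/- and Ezh2-/- was -0.28 and -0.84 for miR-124, -6.56 and 2.51 for miR-294, -3.56 and 0.85 for miR-295, -0.61 and -0.23 for miR-22, and -1.0 and -1.29 for miR-210, so that for miR-294 it was lower in Eed-/- than in Jarid2-/-. These hairpins were picked after their values were seen.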
